A study of Mus musculus with 8 samples.

Results

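The metabolic enzyme genes described here are Gapdh, Pgk1, Ldhal6b, G6pd2, Gk, Hprt and Gusb, which are 7 of the 16 genes that the scanner files name through an accession or a quality-control name. They were chosen as genes of metabolic enzymes among the named features, not by their values, although earlier results of these data were known at that time. Reference probes, each printed in 20 spots on every array, measured Gapdh (NM_008084.2), Ldhal6b (NM_175349.2), G6pd2 (NM_019468.2), Gk (NM_008194.3), Hprt (NM_013556.2) and Gusb (NM_010368.1). Gapdh and Pgk1 were also measured by 4 quality-control features of 10 spots each, whose names mark a 3′ and a 5′ feature of each gene. Together these 10 features fill 160 of the 62939 spots of an array.

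Brainstem RNA was taken from 8 DBA/1 mice, all males of 5 weeks: 4 normal mice (control) and 4 mice of a model of sudden unexpected death in epilepsy (SUDEP), with 1 array per mouse. DBA/1 is an inbred strain prone to sound-induced seizures that can end in respiratory arrest, and both groups share it. The means of inducing the model, and the time of sampling, are not stated in the labels or the series text. The labels give the tissue as brain and the series text as brainstem; none of the 27 cell type and region marker genes listed for a check has a named probe, so the tissue was not checked against markers. Control 1 and control 2 stood apart as the brightest arrays: their probe intensities had a 75th percentile of 458 and 455, against 352 to 377 in the other 6 arrays. Each difference in level is therefore also given without these 2 arrays. Array codes in the file headers begin with 1 number in every control array and a different one in every SUDEP array; the labels do not say what it marks, and it cannot be told apart from the group.

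Glycolysis splits glucose into pyruvate. Gapdh (glyceraldehyde-3-phosphate dehydrogenase) and Pgk1 (phosphoglycerate kinase 1) catalyse consecutive steps of it, and lactate dehydrogenases interconvert pyruvate and lactate; Ldhal6b encodes a lactate dehydrogenase-like protein. Glucose-6-phosphate dehydrogenase, the enzyme of the G6pd2 name, opens the pentose phosphate pathway, which supplies NADPH. Glycerol kinase (Gk) brings glycerol into metabolism, Hprt (hypoxanthine-guanine phosphoribosyltransferase) salvages purine bases, and Gusb (β-glucuronidase) is a lysosomal hydrolase. Gapdh, Hprt, Pgk1 and Gusb are often used as reference genes for measuring RNA. G6pd2 and Ldhal6b are intronless gene copies known mainly from testis. Whether their probes also bind RNA of related genes, such as the X-linked G6pdx, was not tested, so their values are uncertain as measures of these genes alone.

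Of the array features, the files give names and accessions but no sequences. Promoters of all 7 genes were found in RefSeq (assembly GRCm38.p6, reference strain C57BL/6J). The 250 bases before the start are printed for Gk and G6pd2, the reference probes with the widest and the narrowest spread over the control mice. A link between sequence and spread was not tested. Capitals mark matches to GGGCGG on either strand. The Gk promoter is chrX:85776820-85777069, minus strand, and the G6pd2 promoter chr5:61808593-61808842, plus strand.
Gk: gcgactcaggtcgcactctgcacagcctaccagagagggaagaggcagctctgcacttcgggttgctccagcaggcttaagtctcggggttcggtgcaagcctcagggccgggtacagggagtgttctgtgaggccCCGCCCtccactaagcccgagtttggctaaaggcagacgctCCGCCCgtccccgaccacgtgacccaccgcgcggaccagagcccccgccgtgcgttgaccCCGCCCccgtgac
G6pd2: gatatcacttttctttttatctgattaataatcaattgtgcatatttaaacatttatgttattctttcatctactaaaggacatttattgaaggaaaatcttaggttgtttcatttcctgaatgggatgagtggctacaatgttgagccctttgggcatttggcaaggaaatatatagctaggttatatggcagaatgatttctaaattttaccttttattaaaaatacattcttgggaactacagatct
The Gk window holds 21 CG dinucleotides and 67.2% G and C, and the G6pd2 window 0 and 30%. The GGGCGG motif, known as the GC box, matched 3 times in Gk, 2 times in Hprt and 1 time in Pgk1, and in 32.7% of the 32851 promoter windows of the table. TATAAA, the TATA box core, matched only in Ldhal6b among the 7 (3 matches, both strands and overlaps counted), and in 12.4% of all windows. CCAAT matched 1 time each in Pgk1 and Ldhal6b, against 33.8% of all windows. These matches describe the letters and were not set against the intensities.

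No metabolic enzyme gene differed between SUDEP and control mice beyond the spread between mice. Values are given as normalized log2 intensity, the log2 of the scanner's processed intensity minus the 75th percentile of its array, so that 0 is that percentile. At a limma adjusted p under 0.05, 0 of the 6 reference probes passed, against 0.0649% of the 49293 tested probes; with the quality-control features added, 0 of the 4 features of Gapdh and Pgk1 passed, against again 0.0649% of all features tested. At an unadjusted p under 0.05, 0 of the 6 passed by limma, against 8.13% of tested probes, and 0 of 6 passed an exact permutation test. In all 6 the groups overlapped, where 4.79% of tested probes with a value in every mouse showed no overlap. Every spot of the 10 features that was kept lay well above background, and none was saturated.

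Gapdh varied by 0.33 log2 units over the 8 mice. Its normalized log2 intensity was 7.31, 7.35, 7.62 and 7.47 in control 1 to 4 and 7.64, 7.45, 7.34 and 7.42 in SUDEP 1 to 4. The highest value was in a SUDEP mouse (SUDEP 1), closely followed by control 3, and the lowest in control 1. The control mean was 7.44 ± 0.14 and the SUDEP mean 7.46 ± 0.13 (SD, n = 4 each), with a log2 difference of 0.03 (SE 0.11, limma adjusted p = 0.975). The 95% interval of the ratio ran from 0.859 to 1.20. Without control 1 and control 2 the log2 difference was -0.08 (limma adjusted p = 0.866), so its direction is not settled.

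The quality-control features gave a second measure of Gapdh. Its 3′ feature was at 6.57, 6.67, 6.98 and 6.81 in control 1 to 4 and at 6.94, 6.76, 6.64 and 6.75 in SUDEP 1 to 4, with the same 2 mice, control 3 and SUDEP 1, on top as for the reference probe. The reference probe and the 3′ feature followed each other closely over mice: their log2 difference within an array lay between 0.64 and 0.74 in control and between 0.67 and 0.70 in SUDEP. The 5′ feature was at 4.92, 4.91, 5.12 and 4.75 in control and 5.08, 4.93, 4.94 and 4.87 in SUDEP. Its log2 difference from the reference probe spread more, from 2.39 (control 1) to 2.72 (control 4). The SUDEP minus control difference was 0.01 (SE 0.12, limma adjusted p = 0.989) for the 3′ feature and 0.03 (SE 0.11, adjusted p = 0.968) for the 5′ feature. These differences were -0.13 (limma adjusted p = 0.790) and 0.02 (adjusted p = 0.977) without control 1 and control 2.

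Pgk1, the enzyme of the step after Gapdh, was read only by quality-control features. The 3′ feature was at 5.09, 4.99, 5.35 and 5.21 in control 1 to 4 and at 5.27, 5.13, 5.32 and 5.24 in SUDEP 1 to 4. Control 3 was the highest and control 2 the lowest, so the SUDEP values lay inside the control range. The 5′ feature was dim, with processed intensities of 60.4 to 97.7. Of 15 probes named as negatives, the brightest reached 47.5, the next 41.4 and all others at most 8.24. The 5′ feature was at -2.23, -2.49, -2.28 and -2.56 in control and -2.17, -2.35, -2.18 and -2.37 in SUDEP. SUDEP 1 and SUDEP 3 lay above every control mouse and the other 2 did not. The SUDEP minus control difference was 0.08 (SE 0.11, limma adjusted p = 0.887) for the 3′ feature and 0.12 (SE 0.11, adjusted p = 0.832) for the 5′ feature. The 95% interval of the ratio ran from 0.899 to 1.25 for the 3′ feature and from 0.919 to 1.29 for the 5′ feature. Leaving out control 1 and control 2 gave -0.04 (limma adjusted p = 0.943) and 0.15 (adjusted p = 0.755).

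**Figure D1:**
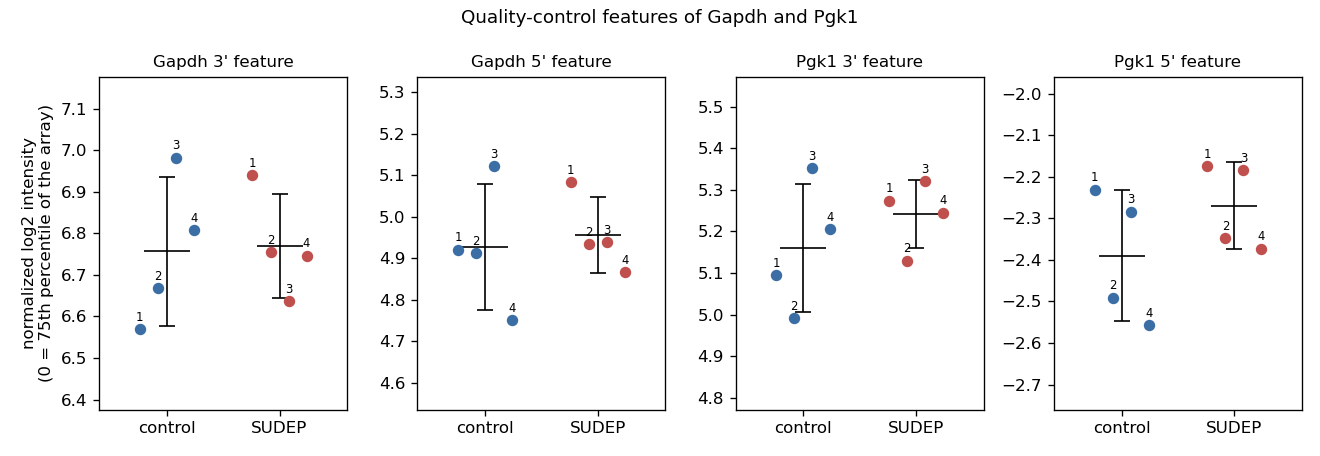
Normalized log2 intensity (vertical axis, 0 is the 75th percentile of the array) of the 3′ and 5′ quality-control features of Gapdh and Pgk1 in 4 control (blue) and 4 SUDEP (red) mice. Points are mice with their number, bars are the mean ± SD, and every panel spans the same log2 range; the groups overlap in all 4 panels.

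The difference between a gene's 3′ and 5′ features within an array needs no scaling between arrays. For Gapdh it was 1.65, 1.75, 1.86 and 2.06 in control 1 to 4 and 1.86, 1.82, 1.70 and 1.88 in SUDEP 1 to 4. For Pgk1 it was 7.32, 7.48, 7.64 and 7.76 in control and 7.45, 7.48, 7.50 and 7.62 in SUDEP. In both genes control 1 had the lowest and control 4 the highest value of all 8 mice, and the SUDEP mice lay between them. The groups did not separate: the SUDEP minus control difference was -0.02 for Gapdh (two-sided exact permutation p = 0.857) and -0.04 for Pgk1 (exact permutation p = 0.714), where the smallest p this design allows is 0.0286. The files do not say where these features lie in the transcripts, so the level of the ratio itself is not read.

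Ldhal6b, the lactate dehydrogenase-like gene, was dim, with processed intensities of 50.1 to 83.9 in control and 44.3 to 60.7 in SUDEP. The 44.3 of SUDEP 1 is below the 47.5 that the brightest probe named as a negative reached over the 8 arrays. The next brightest negative reached 41.4 and all others at most 8.24. Ldhal6b thus came down to the level of the brightest negatives only. Its normalized log2 intensity was -2.45, -2.70, -2.77 and -2.83 in control 1 to 4 and -2.99, -2.82, -2.59 and -2.67 in SUDEP 1 to 4. Control 1 was the highest and SUDEP 1 the lowest, 0.54 apart, the widest range of the 6 reference probes. The log2 difference was -0.08 (SE 0.12, limma adjusted p = 0.908), with a 95% interval of the ratio from 0.781 to 1.14. It was 0.02 (limma adjusted p = 0.900) with normexp background correction and 0.03 (adjusted p = 0.964) without control 1 and control 2. Single arrays moved it as well, to 0.00 without control 1, -0.01 without SUDEP 1 and -0.14 without SUDEP 3.

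G6pd2, named for the first enzyme of the pentose phosphate pathway, was the steadiest of the 6 over both groups together. Among SUDEP mice alone Gk varied less (SD 0.03 against 0.05). The normalized log2 intensity of G6pd2 was 0.25, 0.17, 0.33 and 0.06 in control 1 to 4 and 0.28, 0.29, 0.36 and 0.25 in SUDEP 1 to 4. The 4 SUDEP mice lay within 0.11 of one another and all above the control median, but control 3 lay above 3 of them. The control mean was 0.20 ± 0.12 and the SUDEP mean 0.30 ± 0.05 (SD, n = 4 each), with a log2 difference of 0.10 (SE 0.10, limma adjusted p = 0.847). The 95% interval of the ratio ran from 0.923 to 1.24. The difference was also 0.10 without control 1 and control 2 (limma adjusted p = 0.817), but 0.05 without control 4 alone and 0.14 without control 3 alone.

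Gk, glycerol kinase, was the least even over the control mice. Its normalized log2 intensity was 1.99 and 1.94 in control 1 and control 2 but 1.53 and 1.68 in control 3 and control 4. The SUDEP mice were at 1.69, 1.67, 1.66 and 1.62, all below the control median yet above control 3. The SD over mice was 0.22 in control and 0.03 in SUDEP, a difference in spread that was not tested. The 2 high values came from the 2 brightest arrays; the part of array brightness in them was not tested. The log2 difference was -0.13 (SE 0.12, limma adjusted p = 0.839), with a 95% interval of the ratio from 0.765 to 1.1. Without control 1 and control 2 it was 0.05 (limma adjusted p = 0.897), and leaving out 1 array at a time it lay between -0.21 and -0.06.

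Hprt, the purine salvage enzyme, was at 5.09, 4.86, 5.20 and 5.28 in control 1 to 4 and at 5.20, 5.06, 5.23 and 5.26 in SUDEP 1 to 4. Control 2 was the lowest and control 4 the highest, so the SUDEP values lay within the control range. The log2 difference was 0.08 (SE 0.11, limma adjusted p = 0.896), with a 95% interval of the ratio from 0.890 to 1.26. Leaving out control 2 alone brought it to 0.00 (limma adjusted p = 0.998), and leaving out control 1 and control 2 to -0.05 (adjusted p = 0.913).

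Gusb, the lysosomal β-glucuronidase, had the difference of the largest size among the 6 under this scaling with all arrays and spots. This was not so without scaling (0.00), with the mean of the 15 reference probes subtracted (0.03) or without control 1 and control 2. Gusb was also not the largest with normexp (0.12), with the Gapdh probe subtracted (0.13) or from the upper rows of the array (0.16). Nor was Gusb the largest without control 4 alone (0.12) or without SUDEP 3 alone (0.10). Its normalized log2 intensity was -1.33, -1.51, -1.08 and -1.44 in control 1 to 4 and -1.29, -1.24, -1.03 and -1.17 in SUDEP 1 to 4. All 4 SUDEP mice lay above the control median, and 1 control mouse, control 3, lay above 3 of the 4. The control mean was -1.34 ± 0.19 and the SUDEP mean -1.18 ± 0.11 (SD, n = 4 each), with a log2 difference of 0.15 (SE 0.12, limma adjusted p = 0.794, unadjusted 0.213). The 95% interval of the ratio ran from 0.930 to 1.33. Without control 1 and control 2 the difference was 0.07 (limma adjusted p = 0.899), and without control 3 alone 0.24 (adjusted p = 0.482, unadjusted 0.0528).

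**Figure D2:**
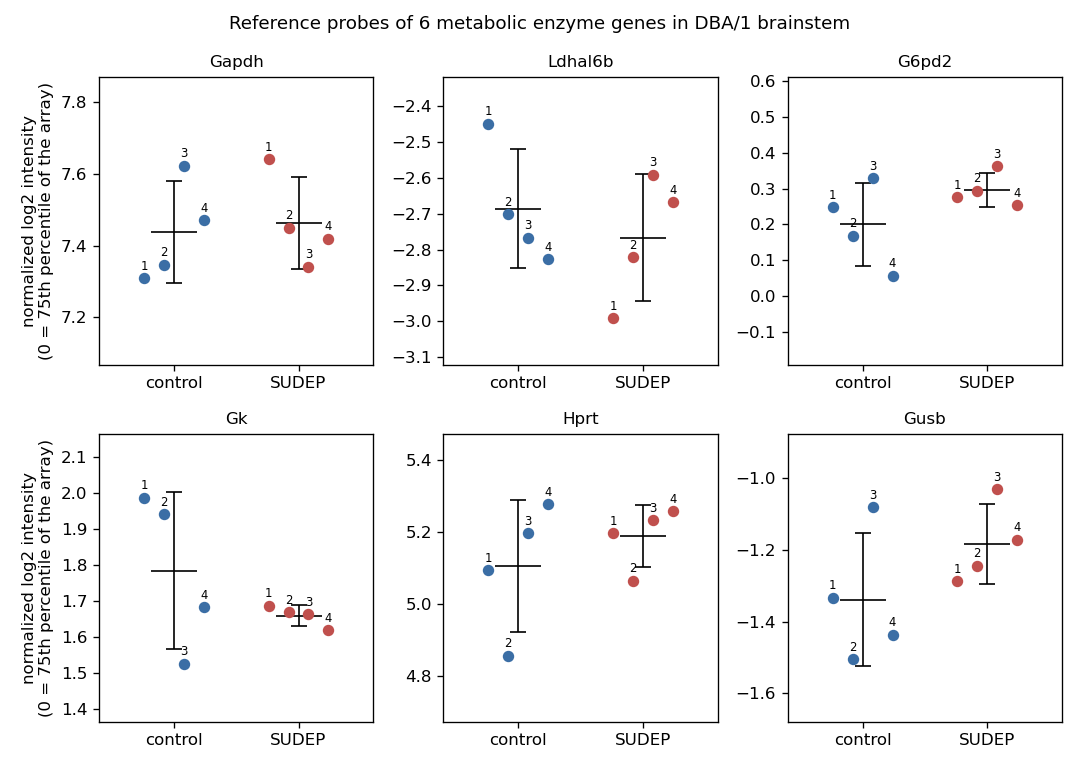
Normalized log2 intensity (vertical axis, 0 is the 75th percentile of the array) of the reference probes of 6 enzyme genes in 4 control (blue) and 4 SUDEP (red) mice. Points are mice with their number, bars are the mean ± SD, and every panel spans the same log2 range; Gk shows 2 high control mice (1.99 and 1.94) and 4 SUDEP mice between 1.62 and 1.69.

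**Figure D3:**
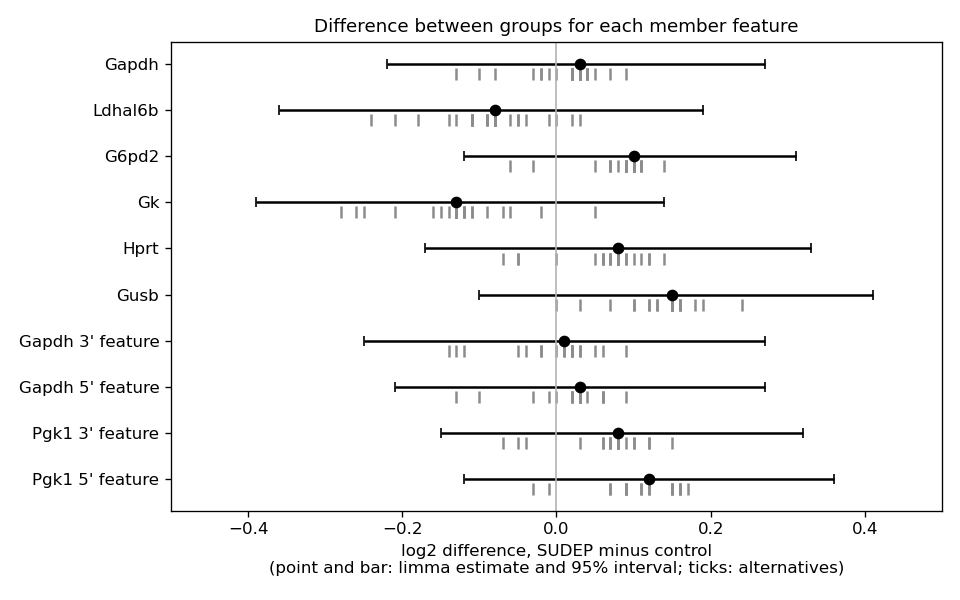
Log2 difference, SUDEP minus control (horizontal axis), for the 10 features of the 7 genes, one per line. Points and bars are the limma estimate with its 95% interval, and grey ticks are the estimates under the alternatives; every interval includes 0.

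The intervals set what these arrays could have missed. The half-width of the 95% interval was 0.21 log2 units for G6pd2 and 0.24 to 0.27 for the other 5 reference probes. A change of 1.33-fold upward, the widest upper bound, or to 0.765-fold, the widest lower bound, was thus within the interval of at least 1 gene. A difference that did not pass the test is not evidence that the groups were equal.

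The 20 spots of a reference probe, which share 1 sequence and 1 RNA sample and are no replicates of a condition, varied among themselves by a different amount in each gene. Within an array the coefficient of variation over spots was 1.86% to 4.56% for Gapdh, 2.89% to 4.39% for G6pd2, 1.82% to 4.68% for Hprt and 2.80% to 6.87% for Gusb. It was wider for Gk, 2.27% to 14.4%, and for the dim Ldhal6b, 6.20% to 15.9%. The standard error that spots leave on an array's mean was 0.011 log2 units for Gapdh and 0.034 for Ldhal6b, so the residual SD over mice was 12.3 and 5.04 times this standard error. The SD of single spots within an array was 0.048 log2 units for Gapdh, against 0.13 over mice within a group, but 0.145 for Ldhal6b and 0.12 for Gk, near their SDs over mice within a group of 0.17 and 0.16. In Hprt, G6pd2 and Gusb the mean SUDEP minus control difference was above 0 in each spot measured in all mice (18 of 18, 16 of 16 and 12 of 12). In Gk it was below 0 in 8 of 10, in Ldhal6b below 0 in 9 of 12, and in Gapdh above 0 in 12 of 15. No spot measured in all mice separated the groups in any of these 6 probes. The shared sign repeats the same 8 samples, since the spots of a probe read the same RNA.

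Spots of Gk differed by where they lay on the array. In the upper rows (1 to 128 of 384) Gk had a processed intensity of 2038 in control 1 and 1313 in control 4, and in the lower rows (257 to 384) 1702 and 1052. The log2 difference between upper and lower rows was 0.26, -0.06, 0.13 and 0.32 in control 1 to 4 and -0.05, -0.06, -0.13 and -0.10 in SUDEP 1 to 4. It was thus positive in 3 of 4 control mice and negative in all 4 SUDEP mice, a pattern seen after the values were examined and not tested. In control 2 outlier marks left 12 of the 20 Gk spots, 2 of 7 in the upper rows. The SUDEP minus control difference of Gk was -0.26 (limma adjusted p = 0.614, unadjusted 0.0493) from the upper rows and -0.02 (adjusted p = 0.986) from the lower rows. The size of the Gk difference therefore rests on which spots are read, although all carry the same probe.

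Some other features also differed by row. Ldhal6b had an upper minus lower difference of 0.17, -0.04, 0.03 and 0.32 in control 1 to 4 and between -0.04 and 0.08 in SUDEP. Control 1 and control 4 were the highest, as for Gk. In control 4 the difference was above 0 in every feature, from 0.04 in Gapdh to 0.39 in the Pgk1 5′ feature. In control 1 it was 0.00 in Gapdh and above 0 in every other feature. Control 1 and control 4 were at 0.12 and 0.10 in G6pd2 and at 0.08 and 0.12 in Hprt, so their trend was not particular to Gk and Ldhal6b. In SUDEP 4 the difference was below 0 in every feature, from -0.11 in the Gapdh 3′ feature to -0.01 in G6pd2 and Hprt. Control 2 lay between -0.07 and 0.00 in every feature. The negative Gk values of these mice were thus not particular to Gk either. SUDEP 1, SUDEP 2 and SUDEP 3 went both ways over the features. In the Pgk1 5′ feature control 4 was at 0.39, beyond any Gk value, and SUDEP 2 at 0.22. This dim feature had only 3 upper and 2 lower spots, against 7 and 10 for Gk, so its values are less precise. In Gapdh the values lay between -0.10 and 0.10 in all 8 mice, and in Gusb between -0.09 and 0.07. Read from the upper and the lower rows alone, the SUDEP minus control difference was -0.18 and -0.05 for Ldhal6b, whose upper rows kept 2 of 5 spots in both control 3 and control 4. It was 0.16 and 0.15 for Gusb, 0.07 and 0.10 for G6pd2, 0.10 and 0.06 for Hprt, and 0.05 and 0.00 for Gapdh.

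**Figure D4:**
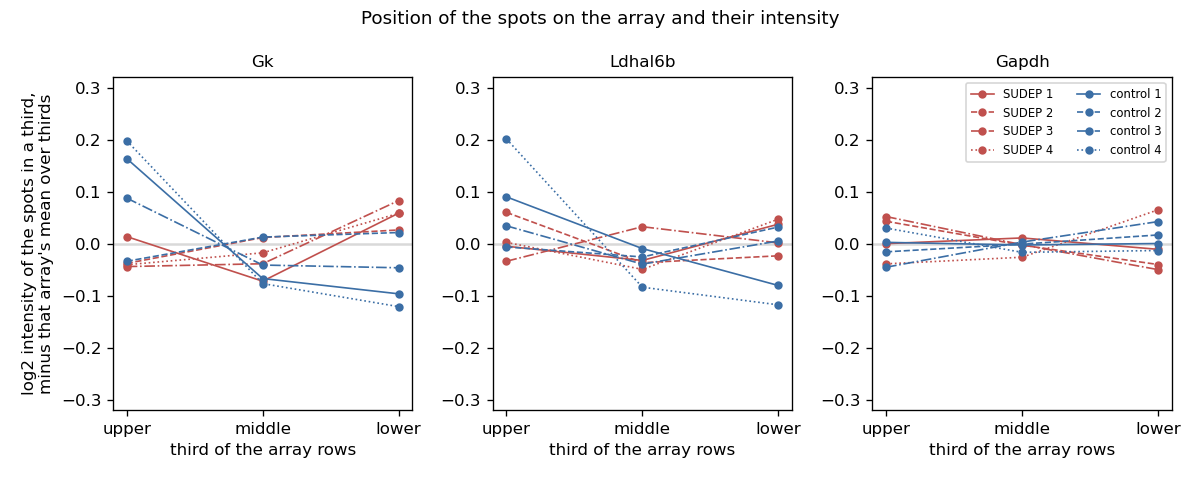
Mean log2 intensity of the spots in the upper, middle and lower rows of each array (horizontal axis), minus that array's mean over the 3 (vertical axis), for Gk, Ldhal6b and Gapdh. Lines are mice (control blue, SUDEP red); Gk and Ldhal6b fall from upper to lower rows in control 1 and control 4 (by 0.26 and 0.32 in Gk), while Gapdh stays within 0.10 between upper and lower rows.

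Set beside all tested probes, the reference probes of the enzyme genes, as means of 20 spots, had a low SD over mice. The SD over mice within a group was 0.09 log2 units for G6pd2, at percentile 5.8 of all tested probes. For Gapdh it was 0.13 (percentile 24.4), for Hprt 0.14 (28.6), for Gusb 0.15 (34.2), for Gk 0.16 (35.6) and for Ldhal6b 0.17 (43.8). All 6 thus lay below the median of 0.18, but these probes average 20 spots and nearly all others have 1, which lowers their SD. Single spots within an array had an SD of 0.12 for Gk and 0.145 for Ldhal6b. For Gapdh, G6pd2, Hprt and Gusb this SD was 0.048 to 0.066. For Gk and Ldhal6b a place below the median is thus not shown for single spots. The part of that averaging in the percentiles was not tested. The absolute group difference of Gapdh lay at percentile 13.2 of tested probes and that of Gusb at percentile 66.2; the median over all tested probes was 0.11.

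**Figure D5:**
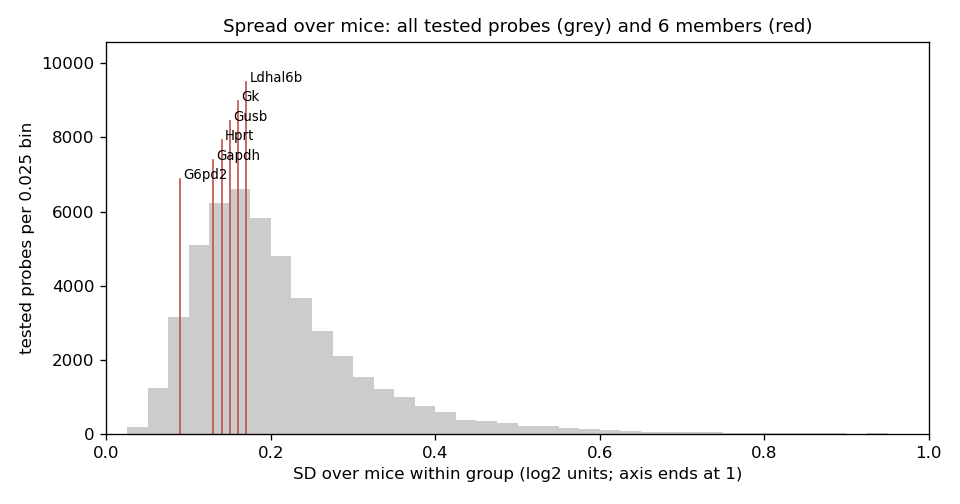
Number of tested probes (vertical axis) by their SD over mice within a group in log2 units (horizontal axis), in grey, with the 6 reference probes of enzyme genes as red lines. G6pd2 stands at 0.09 and the other 5 between 0.13 and 0.17, left of the median of 0.18.

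The genes did not share 1 pattern over mice. Control 1 was the lowest mouse for Gapdh and the highest for both Gk and Ldhal6b. SUDEP 1 was the highest for Gapdh and the lowest for Ldhal6b, 0.19 above and 0.26 below their means over the 8 mice. Control 2 was the lowest for Hprt and Gusb, 0.29 and 0.24 below their means, and SUDEP 2 stayed within 0.09 of the mean in all 6 genes. Likeness of pattern was measured as the root mean square difference of centred values over the 8 mice, against the other 14 reference probes, as a description of the same arrays and scaling. Hprt was nearest to Tuba1b (an alpha-tubulin gene, 0.05), and Gapdh to Ppia (the cyclophilin A gene, 0.08). G6pd2 and Gusb were each the nearest to the other (0.09), with Hsp90ab1, a heat shock protein gene, at the same rounded distance from both. Gk and Ldhal6b were also each the nearest to the other (0.15).

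Of the wider pathways, little can be read from these named features. Of 47 genes listed for glycolysis, the pentose phosphate pathway, purine salvage, glycerol metabolism and lysosomal hydrolases, 6 have a named feature, and all 6 are described above. These are Gapdh and Pgk1 of 18 glycolysis genes, G6pd2 of 9 pentose phosphate genes, Hprt of 6 purine salvage genes, Gk of 6 glycerol genes and Gusb of 8 lysosomal hydrolases. None of the 6 passed the test in either direction. Fewer cells of a type and less RNA per cell cannot be told apart in bulk tissue.

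Gapdh is often used as the reference that other genes are scaled to. With the Gapdh probe subtracted from each array in place of the 75th percentile, the log2 difference was -0.15 for Gk, -0.11 for Ldhal6b, 0.06 for Hprt, 0.07 for G6pd2 and 0.13 for Gusb. Each was within 0.03 of its value above, which was fixed in advance. The subtraction lowers every difference by that of Gapdh itself, which was 0.03. The limma SE was larger, 0.18 against 0.12 for Gk, 0.19 against 0.12 for Ldhal6b and 0.14 against 0.10 for G6pd2. Of the 5, 0 passed the limma adjusted threshold with Gapdh as the reference, against 0.0467% of tested probes.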

How the data were processed

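Per the labels, the 8 arrays (Arraystar mouse lncRNA Microarray V3.0) were hybridised with Cy3-labelled cRNA made by random priming along the transcripts from rRNA-depleted Trizol RNA, and the mice are described as biological replicates, 4 per group, grouped here by title. Per the file headers and the submitters' processing notes, Agilent Feature Extraction 11.0.1.1 gave each spot a processed intensity, background-subtracted and spatially detrended, that was not normalized between arrays, and median intensities of spot and local background. A second table holds the authors' processed log2 values, made by a method that the sources used here do not state. All columns of that table correlated best with their own arrays (r 0.995 to 1.00) and have a median of 6.44. It holds none of the 6 member probes, so it could not serve as an alternative.

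Here, spots marked as non-uniform or population outliers were set to missing (0.0529% of spot values of non-control probes). The member reference probes lost a larger share: 12 of 20 Gk spots were kept in control 2, and 14 of 20 Gusb spots in control 3. The spots of a probe were averaged as log2 intensity, and the 75th percentile over 60915 non-control probes was subtracted from each array. The 15 probes named as negatives were left out. The 49293 probes that were well above background on 4 or more of 8 arrays entered limma 3.58.1 (R 4.3.3, two-sided) with a term for group alone, and p-values were adjusted over all of them (Benjamini-Hochberg). The quality-control features were added to the same table for a second fit with 44 more features. The fit was tested on simulated data. Single values were compared with exact permutation tests over mice. The number of arrays limits the precision. Accessions were matched without versions to RefSeq names; all 15 reference probes matched. All member features are named, as the naming rule asks, and for likeness the nearest of the reference probes. The genes and lists described were chosen with earlier results of these data known. Figures were drawn with matplotlib 3.10.9.

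The replicate numbers were not taken to pair mice. Deviations from group means correlated with r = -0.07, 0.30, 0.00 and 0.16 for numbers 1 to 4, and the labels give no shared litter or day. For numbers 2 and 4 the control and the SUDEP mouse were each other's best match, and for numbers 1 and 3 they were not.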

Additional observations from a re-analysis of the deposited data

How the results depend on the processing

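In none of the 28 other settings of the fit did a reference probe pass the limma adjusted threshold (0 of 6), and in 1, the upper rows, 1 probe (Gk) passed an unadjusted p under 0.05, against 8.13% of tested probes. Leaving out the scaling, or subtracting the mean of the 15 reference probes, changes each array by 1 amount for all probes. Either setting therefore moves the difference of every probe alike. The cause of the other changes below was not tested. Without scaling, the median of all tested probes was itself at -0.15, and Gapdh stood at -0.13, G6pd2 at -0.06, Hprt at -0.07, the 3′ and 5′ features of Gapdh at -0.14 and -0.13 and those of Pgk1 at -0.07 and -0.03, with Gk, Ldhal6b and Gusb at -0.28, -0.24 and 0.00. With the mean of the 15 reference probes subtracted, that median was -0.12, and the same 7 features stood at -0.10, -0.03, -0.05, -0.12, -0.10, -0.05 and -0.01, with Gk, Ldhal6b and Gusb at -0.25, -0.21 and 0.03. Relative to the median, which moves by the same amount, the 14 values that turned sign lay between 0.00 and 0.12. Gk, Ldhal6b and Gusb lay at -0.13, -0.09 and 0.15 in both settings. Array weights gave Gapdh -0.02, normexp gave Ldhal6b 0.02 and the Gapdh 3′ minus 5′ difference 0.01, and the lower rows gave the Gapdh 3′ feature -0.02. Without control 1 and control 2, Gapdh was at -0.08, Ldhal6b at 0.03, Gk at 0.05, Hprt at -0.05 and the 3′ features of Gapdh and Pgk1 at -0.13 and -0.04. With 1 array left out the differences spanned -0.03 to 0.09 for Gapdh, 0.00 to 0.14 for Hprt, 0.05 to 0.14 for G6pd2, 0.10 to 0.24 for Gusb, -0.14 to 0.00 for Ldhal6b, -0.05 to 0.09 and -0.03 to 0.09 for the Gapdh 3′ and 5′ features, and -0.08 to 0.06 and -0.11 to 0.03 for the 3′ minus 5′ differences of Gapdh and Pgk1. Reading spots by rows, leaving out control 1 and control 2 together and the sign-flip test were chosen after seeing the data.

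With the replicate block the estimates do not change, and no member passed: limma adjusted p was 0.673 for Gusb, 0.767 for Gk, 0.785 for G6pd2, 0.825 for Hprt, 0.892 for Ldhal6b and 0.967 for Gapdh. For the quality-control features it lay between 0.722 and 0.986, and a sign-flip test paired by number gave an exact p of 1.00 and 0.375 for the 3′ minus 5′ differences. Over all probes the replicate block called 13 against 32. The count of all probes past the threshold ran from 0 (unmoderated test, 3723 at an unadjusted p under 0.05) to 240 (normexp). A slide or scan block was not run, since the scan time is shared by all arrays and the first array code number differs between groups.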

Other observations

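In 24 groups of 4 mice examined (10 features and both 3′ minus 5′ differences, in each group), no mouse stood far enough from the other 3 to pass Dixon's 95% criterion, where chance gives about 1 in 20. The 3 largest gaps were those of Hprt in SUDEP mice, where SUDEP 2 was lowest (0.680 of the range), of the Gapdh 3′ minus 5′ difference in SUDEP mice (0.679) and of Gk in SUDEP mice (0.674).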
